A study of Mus musculus with 22 samples.

Results

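The genes described here are 47 genes of mitosis and chromosome segregation, chosen by name out of the 24421 genes counted in each library, and followed across 6 kinds of epithelial cells of the mouse colon crypt. RNA was sequenced in 22 libraries, namely 3 of stem cells (Stem), 3 of absorptive progenitors (AbsPro), 4 of a mixed secretory population (SecPDG, described by the study as mainly progenitors of the secretory branch with deep crypt secretory cells, and perhaps a few goblet cells), 5 of tuft cells, 5 of enterocytes and 2 of enteroendocrine cells (EECs). All cells came from untreated wild-type male C57BL/6N mice of 5 to 7 weeks and were sorted alive as Epcam-positive cells without Cd31 and Cd45, after a dissociation with EDTA and no protease. By the sample labels, stem cells had the highest Cd44 with low Cd24 and no Ckit, AbsPro medium to high Cd44 with low Cd24 and no Ckit, SecPDG high Cd44 with medium Cd24 and Ckit, tuft cells high Cd24 with Ckit, enterocytes little or no Cd44 and no Cd24, and EECs little or no Cd44 with Cd24. The study's text differs for SecPDG, where it gives medium Cd44 and finds Kit protein detectable in tuft cells alone. These are sort gates and not pure cell types. The libraries of a cell type came from different mice and sorts, with 1 mouse for each Stem and AbsPro library and pools of mice for the others.

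At mitosis the duplicated chromosomes are packed by condensin, caught by spindle microtubules at their kinetochores and held until the spindle checkpoint is satisfied. The anaphase-promoting complex with its activator Cdc20 then marks securin and cyclin B for destruction, separase cuts cohesin, and the central spindle guides the division of the cell. Most of the RNAs involved are made late in the cell cycle, by promoters that are repressed in resting cells by the DREAM complex and are active under B-Myb and FoxM1. In the crypt, stem cells and progenitors near the base divide, while the mature cells that leave the crypt have stopped dividing.

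The 47 genes cover these steps. Mki67 codes for the Ki-67 protein of the chromosome surface. Bub1, Bub1b, Bub3, Mad2l1 and Ttk belong to the spindle checkpoint, and Cdk1, Ccna2, Ccnb1, Ccnb2, Plk1 and Aurka are mitotic kinases and cyclins. The chromosomal passenger complex is made of Aurkb, Incenp, Birc5 and Cdca8, and anaphase onset is represented by Cdc20, Ube2c, Pttg1 (securin) and Espl1 (separase). Cenpa, Cenpe, Cenpf, Ndc80, Nuf2, Spc24 and Spc25 sit at the centromere and the outer kinetochore. Kif11, Kif15, Kif18b, Kif2c, Kif4, Kifc1, Tpx2, Hmmr and Nusap1 are motors and other proteins of the spindle, and Kif20a, Kif23, Prc1, Anln, Racgap1 and Ect2 work at the central spindle and in cytokinesis. Ncapg, Ncapd2, Ncaph, Smc2 and Smc4 form condensin I.

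The promoters of these genes show the letters by which late cell cycle genes are known, the cell cycle genes homology region (CHR, searched as TTTGAA) and the CCAAT box (CCAAT). In windows from 250 bases before to 50 bases after the RefSeq start (GRCm38.p6), searched on both strands, CHR letters stood in 31 of the 40 members with a matched window, or 77.5%, against 20.2% of 27025 genes. The CCAAT letters were in 75% of members against 41.1% of all genes. Both CHR letters and 2 or more CCAAT, which may overlap where CCAAT meets its own reverse, were in 45% against 2.42%. Of the other mitosis genes described further on, 103 had a window, and 35.9% of these held CHR letters, 56.3% CCAAT and 15.5% CHR with 2 or more CCAAT. In 31 DNA replication genes these shares were 12.9%, 61.3% and 6.45%. An E2F-like motif (TTCCCGC) was in 2.5% of members, against 5.29% of all genes, 20.4% of the other mitosis genes and 48.4% of the DNA replication genes. The last 120 bases before the start are shown for 6 genes that the results return to, chosen among windows that run little into transcribed sequence of any gene. The capitals mark CHR and CCAAT letters on either strand, so that TTCAAA and ATTGG are the same motifs read from the other side.
Cdk1, chr10:69352913-69353032, minus strand: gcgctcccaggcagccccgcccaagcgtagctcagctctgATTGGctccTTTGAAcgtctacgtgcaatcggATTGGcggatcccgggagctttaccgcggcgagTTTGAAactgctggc
Cdc20, chr4:118437344-118437463, minus strand: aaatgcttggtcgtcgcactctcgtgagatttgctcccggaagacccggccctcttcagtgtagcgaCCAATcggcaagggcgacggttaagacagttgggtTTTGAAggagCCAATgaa
Kif11, chr19:37376262-37376381, plus strand: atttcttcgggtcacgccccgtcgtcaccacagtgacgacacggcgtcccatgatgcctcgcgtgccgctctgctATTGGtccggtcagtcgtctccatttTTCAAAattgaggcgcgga
Espl1, chr15:102296173-102296292, plus strand: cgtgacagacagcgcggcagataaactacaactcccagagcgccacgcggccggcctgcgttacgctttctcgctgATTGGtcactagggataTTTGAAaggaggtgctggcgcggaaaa
Mki67, chr7:135716380-135716499, minus strand: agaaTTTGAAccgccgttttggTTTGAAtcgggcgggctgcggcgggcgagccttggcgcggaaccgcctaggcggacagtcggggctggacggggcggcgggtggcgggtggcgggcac
Plk1, chr7:122159315-122159434, plus strand: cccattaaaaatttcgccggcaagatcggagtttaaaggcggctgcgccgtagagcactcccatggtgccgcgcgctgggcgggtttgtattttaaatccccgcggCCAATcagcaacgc
Cdk1 held 2 CHR motifs within 71 bases of its start, and in Plk1 the CHR letters lay after the start, at base 31, so that they fall outside the bases shown. Birc5, Bub1, Ccnb1, Cenpe, Mad2l1, Ncaph, Nuf2, Nusap1 and Pttg1 had no CHR letters in their windows. No window was matched in the table used here for Smc4, Tpx2, Ccna2, Aurkb, Incenp, Kif20a and Spc24. A match of letters is a description of the sequence and not a shown site.

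Levels are given as normalized counts, which are reads counted on a gene after scaling every library to the same effective size by TMM, and fold changes are log2 values from edgeR's quasi-likelihood fit of all 22 libraries. A gene was called at an adjusted p (Benjamini-Hochberg, over 22781 genes) under 0.01 if its mean normalized count was 50 or more, which all 47 members reached. The shares of all genes called belong to this fit. None is given for DESeq2 or the other alternative fits, so their counts have no such measure beside them. Reads on genes came to 4122122 to 22462518 per library, with the fewest in EEC 1, while EEC 2 had 13132315. Counts on olfactory, vomeronasal and trace amine receptors and keratin-associated proteins (1509 genes with little known use in this tissue) served as a measure of stray background, in CPM (counts scaled to the library total). It was 12.2 to 157 CPM in Stem, AbsPro and SecPDG libraries, while tuft libraries had 179 to 1476, enterocyte libraries 777 to 3912 and the EEC libraries 7096 and 625. Spread over exon length, that background came to a median of 0.122% of a member's level in Stem, 2.9% for tuft cells, 11.9% for enterocytes and 35.2% for EECs, where it was at least 50% for 11 members. In Bub1, Mad2l1, Kif4, Ncapg, Ect2 and Ccnb1 it exceeded the EEC level itself, up to 218% in Ccnb1. A true share cannot do so, and the estimate is therefore rough and too high for such genes. Per library the summed stem cell markers (6 genes) were 21014 to 26393 in Stem and at most 11198 elsewhere, and the tuft and enteroendocrine markers were highest in their own sorts. The sum of the 8 enterocyte markers was as high in AbsPro (76003 to 116516) as in enterocytes (52267 to 79624). It stood at 22727 and 147155 in the EEC libraries, with 13789 to 25526 in Stem. Gene by gene, Aqp8, Car4 and Krt20 were called higher in enterocytes than in AbsPro and none lower (median log2 fold change 0.65). In addition the sum of the 8 goblet markers was as high in tuft libraries (783635 to 1181250) as in some SecPDG libraries, where it began at 821556. Of these genes Tff3 and Zg16 were called lower in tuft cells than in SecPDG and none higher (median log2 fold change -1.22). In bulk RNA a lower level can mean fewer dividing cells or less RNA per cell, and these cannot be told apart.

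Summed over the 47 genes, the level was 84025 ± 11226 in Stem (SD, n = 3) and 84678 ± 10590 in SecPDG (n = 4), 63129 ± 12864 in AbsPro (n = 3), 44520.5 ± 10868 for tuft cells (n = 5), 18878 ± 7982 for enterocytes (n = 5) and 8238 ± 4182 for EECs (n = 2). As a share of the Stem mean, SecPDG had 101%, AbsPro 75.1%, tuft cells 53%, enterocytes 22.5% and EECs 9.8%. The neighbours in this order overlapped, with 48893 to 73917 in AbsPro against 36349 to 62637 in tuft cells, and 11093 to 30390 in enterocytes against 5281 and 11194 in EECs, while the lowest tuft library lay above the highest enterocyte library. Of the 47 genes, 28 had their highest mean in Stem, 17 in SecPDG and 1 each in tuft cells (Bub3) and enterocytes (Pttg1), and 42 had their lowest in EECs. These ranks were not counted over all genes. Per kilobase of exon Mki67 was the most abundant member in Stem, AbsPro, SecPDG and enterocytes, and Plk1 in tuft cells and EECs.

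**Figure D1:**
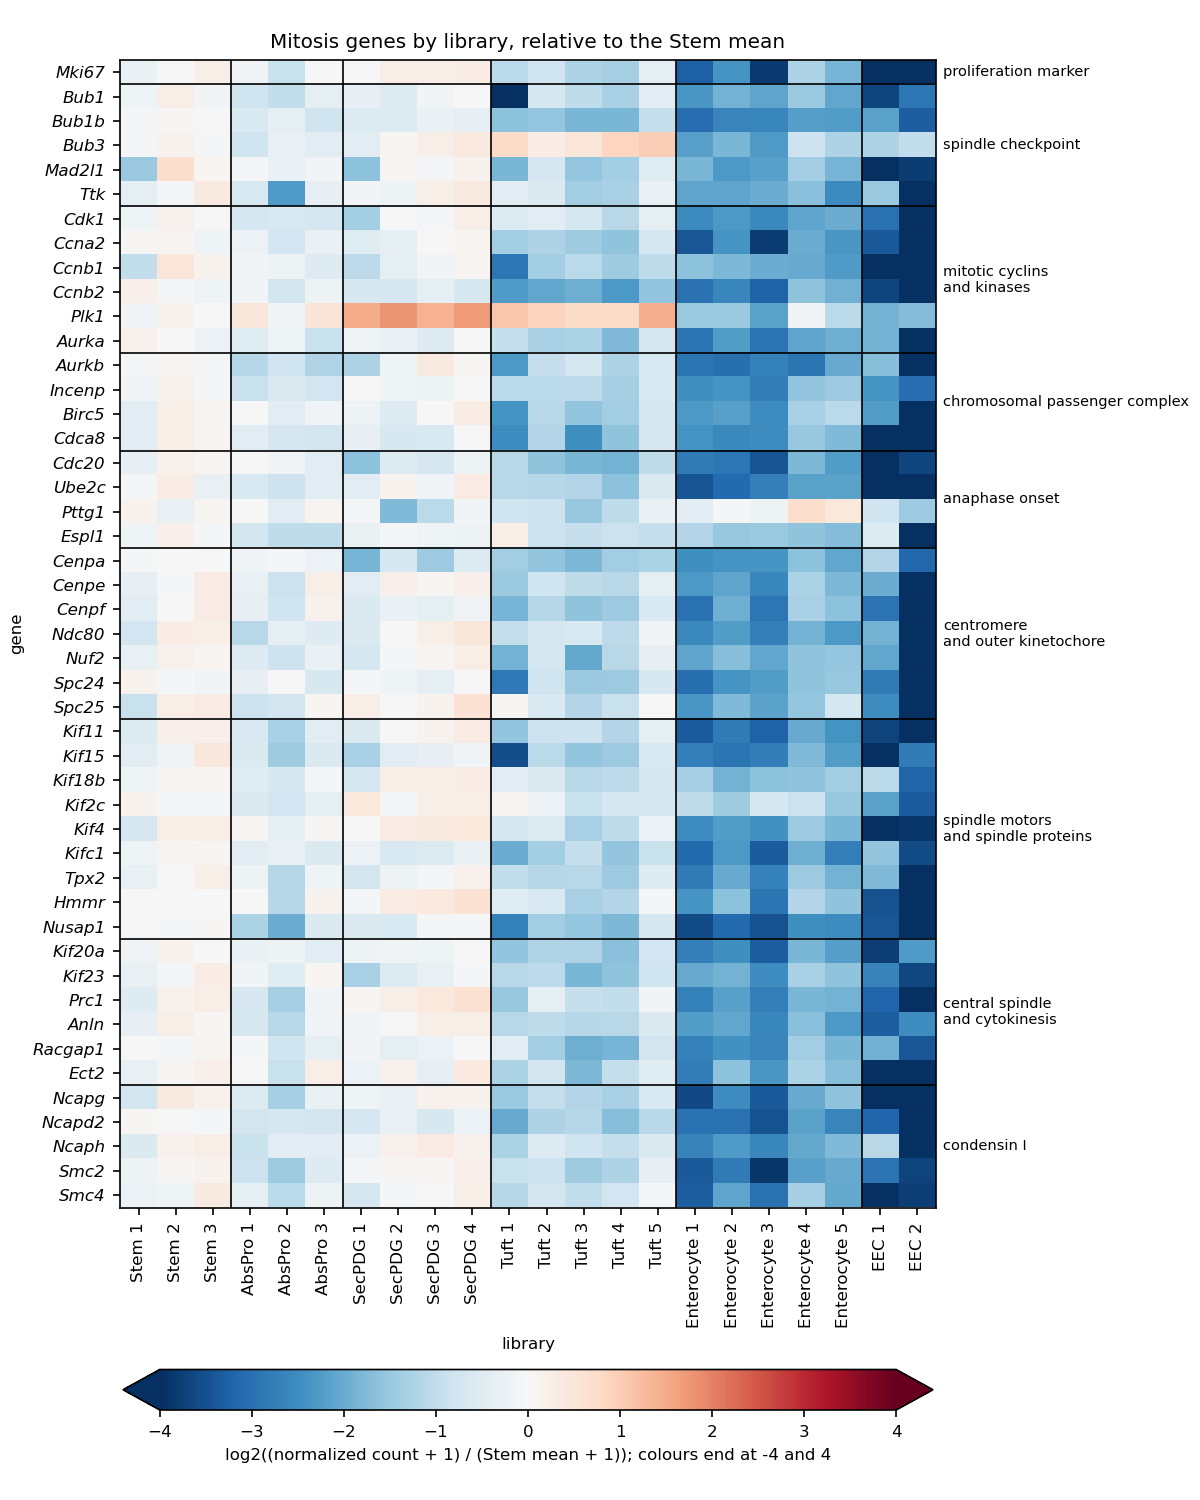
Each row is 1 of the 47 genes, grouped by role, and each column 1 of the 22 libraries, with colour giving log2 of the normalized count plus 1 over the Stem mean plus 1. Blue deepens from AbsPro and tuft cells to enterocytes and EECs, while Plk1 is red in SecPDG and tuft cells, Bub3 is red in tuft cells, and Pttg1 stays pale in enterocytes.

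Mki67, the marker most used for dividing cells, stood at 18356, 22300 and 26134 normalized counts in the Stem libraries and at 20117, 12002 and 22628 in AbsPro. In SecPDG it was 22163, 26625, 26585 and 27178, within or just above the Stem range. In tuft cells it was 10540.4, 12830.2, 9531, 8781 and 17021, all below every Stem library, although the difference was not called (log2 fold change -0.92 ± 0.42 SE, adjusted p = 0.08). In enterocytes it was 2312, 4300, 1568, 9412 and 6072, and it fell by 2.23 ± 0.43 on the log2 scale (adjusted p = 3.4e-05). In EECs it was 1168 and 819, a log2 fold change of -4.50 ± 0.68 (adjusted p = 5.3e-07). All enterocyte and EEC libraries lay below every Stem, AbsPro and SecPDG library, and Enterocyte 4 came within the range of the tuft libraries.

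Whether the mitotic program had already dropped in the absorptive progenitor was asked by comparing AbsPro with Stem. No member was called by edgeR, against 0.588% of all genes called in either direction, and DESeq2 called none. At an unadjusted p under 0.05, 10 members were lower. No share of all genes is given for that limit, so this count is not read as a result. The median log2 fold change was -0.49, against 0.04 over 13188 genes with a mean of at least 50, and 46 of the 47 values were below 0. In 17 members every AbsPro library was below every Stem library, against 10.5% of those genes. Nusap1, which bundles spindle microtubules, had the lowest p, with 585, 348 and 925 in AbsPro against 1421, 1307 and 1450.1 in Stem (log2 fold change -1.18 ± 0.36, adjusted p = 0.091). Aurkb, the kinase of the passenger complex, was at 335, 426 and 319 against 706, 801 and 721 (-1.04 ± 0.37, adjusted p = 0.2), and Smc2 of condensin at 1194, 811 and 1532 against 1895, 2273 and 2388 (-0.89 ± 0.34, adjusted p = 0.26). Condensin I and the passenger complex had the lowest medians by role, -0.66 and -0.68, and AbsPro 2 had the smallest sum, 48893. With a fit of AbsPro and Stem alone 3 members were called lower, and 2 without the libraries of high background.

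The same question for the secretory branch was asked with SecPDG, where the members lay near the Stem level. The median log2 fold change was -0.14, against -0.06 over all genes, and edgeR called 1 member, Plk1, as higher, against 3.38% of all genes called higher. Plk1, the polo-like kinase of mitotic entry and spindle assembly, was at 4259, 5084, 3925 and 4894 in SecPDG against 1389, 1655 and 1481 in Stem. All SecPDG libraries were above all Stem libraries, with a 3.01-fold difference (log2 1.59 ± 0.34, adjusted p = 6e-04), and the call held in all 35 alternatives. Cenpa, the histone H3 variant of the centromere, went the other way without being called, at 207, 464, 270.4 and 516 against 719, 764 and 765 (-1.06 ± 0.32, adjusted p = 0.024), and Cdc20 was at 360.2, 772, 692 and 972 against 893, 1261 and 1189 (-0.68 ± 0.31, adjusted p = 0.22). Cenpa was called with DESeq2 size factors, library totals, the 2 cell types alone, a replicate block, without the libraries of high background, or without either EEC library, and with an adjusted p under 0.05 as the limit.

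Set against AbsPro, SecPDG had 39 of 47 values above 0, with a median log2 fold change of 0.42 against -0.04 over all genes. Plk1 was again the only call, against 2.00% of genes called higher, at 2.42-fold (log2 1.28 ± 0.33, adjusted p = 0.0086) over the AbsPro values of 2062, 1412 and 2143. It was not called without any 1 of Stem 1, AbsPro 2, SecPDG 1, SecPDG 3, SecPDG 4, Tuft 1, Tuft 2, Tuft 3 or Enterocyte 2, nor with the replicate block or trended dispersions, and without EEC 1 there were 3 members called higher and 1 lower. Prc1, which crosslinks the central spindle, was at 1297, 1452, 1661 and 1904 against 786, 487 and 1140 (0.98 ± 0.32, adjusted p = 0.058), and Smc2 at 2129, 2278, 2270 and 2538 against the AbsPro values above (0.97 ± 0.32, adjusted p = 0.059). In both genes the groups did not overlap.

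**Figure D2:**
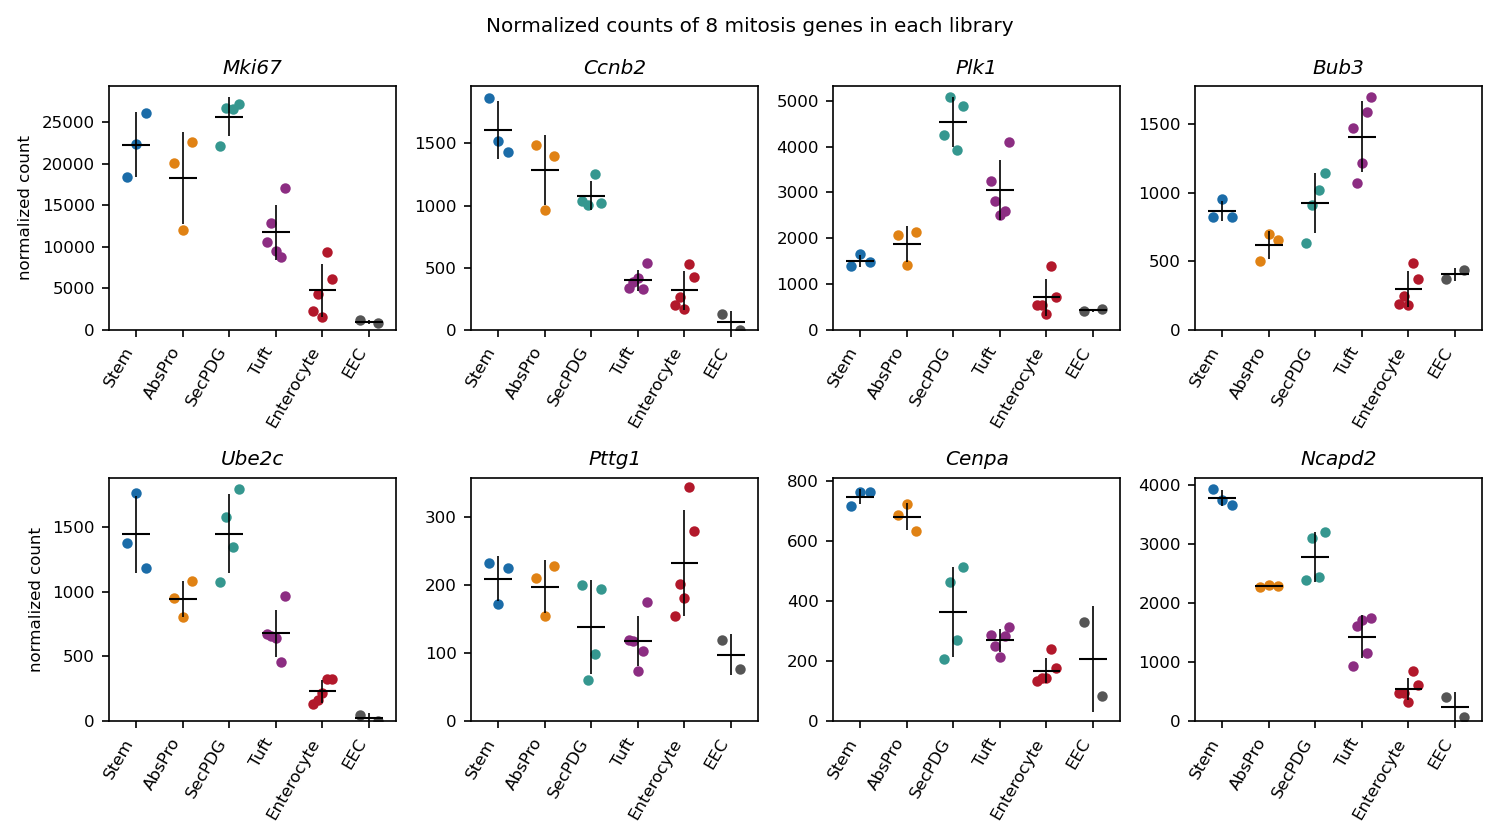
Normalized counts (linear axes from 0) of 8 genes, with 1 point per library, a bar at the mean and a vertical line of 1 SD. Mki67, Ube2c and Ncapd2 step down from Stem and SecPDG to tuft cells, enterocytes and EECs, Plk1 peaks in SecPDG (3925 to 5084), Bub3 peaks in tuft cells (1070.1 to 1699), and Pttg1 overlaps between Stem and enterocytes.

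In tuft cells 22 members fell against Stem, against 4.23% of all genes called lower, and the median log2 fold change was -1.03 against -0.09 over all genes. At an unadjusted p under 0.05, 40 members were lower and 2 higher. No share of all genes is given for that limit, so these counts are not read as a result. In 32 members every tuft library was below every Stem library, against 18.2% of genes. Ccnb2, a B-type cyclin, fell most, from 1868, 1522 and 1432 in Stem to 334, 381, 417, 327 and 535, which is 0.251-fold (log2 -1.996 ± 0.31, adjusted p = 1.5e-06). Bub1b, the checkpoint kinase BubR1, was at 679.8, 732, 599, 598 and 1105 against 2029, 2222 and 2148 (-1.51 ± 0.28, adjusted p = 3.8e-05). Both genes had no tuft library near the Stem range. Cdca8, Cenpa, Nusap1, Cdc20, Ccnb1 and Ncapd2 fell, with log2 fold changes from -1.39 to -1.48, and 3 of 4 passenger genes, 4 of 6 cyclins and kinases, 4 of 6 cytokinesis genes, 3 of 7 kinetochore genes, 3 of 9 spindle genes, 2 of 4 anaphase genes, 2 of 5 condensin genes and 1 of 5 checkpoint genes were among the calls. The count of 22 rested on the setting, since DESeq2 called 12, the trended dispersions of estimateDisp gave 7, and the count was 13 without Stem 2 and 14 without Tuft 3. Of the 47 values 45 were below 0.

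The 2 exceptions in tuft cells were Plk1 and Bub3, named here after their values were seen. Plk1 was at 3258, 2819, 2496, 2591 and 4104, all above the highest Stem library, with a log2 fold change of 1.02 ± 0.32 that was not called (adjusted p = 0.014) but was called in 16 of 35 alternatives, over which adjusted p ran from 1.5e-07 to 0.056. Those 16 included the fits without AbsPro 1, AbsPro 3, Tuft 4, Enterocyte 1, Enterocyte 3, Enterocyte 4, EEC 1 or EEC 2. Bub3, which brings Bub1 and BubR1 to the kinetochore, was at 1468, 1070.1, 1212, 1586 and 1699 against 824, 950 and 823, again with no overlap (0.70 ± 0.29, adjusted p = 0.053), and was called in 4 of 35 alternatives. DESeq2 called both higher. Immune markers (12 genes) summed to 1503 to 3454 in tuft libraries against 46.7 to 114 in Stem, with 3 called higher and none at 0, the endothelial markers (4 genes) to 170 to 586 against 9.6 to 18.9, all called higher, and the stromal markers (8 genes) to 237 to 871 against 120 to 402, with 1 called higher. The goblet markers given above were high there too, and the part of any of these in the values was not tested.

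Tuft cells set against SecPDG had a median log2 fold change of -0.92 against -0.12 over all genes, with 46 of 47 values below 0. Bub1b, Ccnb2, Birc5, Ube2c, Kif20a and Anln were the 6 members called lower, against 0.347% of all genes. Ccnb2 again differed most (0.373-fold, log2 -1.42 ± 0.30, adjusted p = 0.001), followed by Birc5, or survivin, at 0.422-fold (-1.24 ± 0.32, adjusted p = 0.0076), and DESeq2 called 6 lower and Bub3 higher. Mki67 was at 0.458-fold and was not called (-1.13 ± 0.39, adjusted p = 0.049). The count was unstable. It was 1 without SecPDG 3, SecPDG 4, Tuft 2 or Tuft 3, 2 without Tuft 1, 11 without SecPDG 2, 15 without Stem 2 or Stem 3, 16 without AbsPro 1 or AbsPro 3, 18 without Enterocyte 1, 21 without Tuft 5 or EEC 2 and 29 without EEC 1, and 0 with trended dispersions. Tuft 5, which had the lowest background of its group (179 CPM), had the highest sum, 62637 against 36349 to 46566 in the other 4.

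In enterocytes 46 of the 47 members fell against Stem, against 11.5% of all genes called lower, with a median log2 fold change of -2.11 (4.31-fold lower) against -0.30 over all genes. DESeq2 called 36 lower, and 28 were called without the libraries of high background, described further on. In 43 members no enterocyte library reached the Stem range, against 26.0% of genes. Every role took part, with medians from -1.95 for the spindle checkpoint to -2.45 for condensin I. Nusap1 fell most, to 116, 162, 122, 251 and 245 (0.129-fold, log2 -2.95 ± 0.36, adjusted p = 3.4e-09). Ncapd2, a regulatory subunit of condensin I, went from 3934, 3756 and 3665 in Stem to 475, 475, 335, 849 and 609 (0.145-fold, -2.78 ± 0.32, adjusted p = 8.4e-10). These ranges lay far apart, and Smc2, Aurkb, Kif11, Ube2c, Ccna2 and Kifc1 also fell, with log2 fold changes from -2.58 to -2.70. The smallest called changes were those of Kif2c and Plk1, at -1.05 ± 0.30 and -1.09 ± 0.32 (adjusted p = 0.0033 and 0.004).

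Plk1 was at 537, 538, 341, 1396 and 719 in enterocytes, so that Enterocyte 4 overlapped the Stem libraries, and its call was lost without Enterocyte 2 or Enterocyte 3, with DESeq2 size factors, with the background taken off and without the libraries of high background (adjusted p = 0.014, 0.017, 0.01, 0.02 and 0.7). The member not called was Pttg1, which codes for securin, at 155, 202, 180.2, 343 and 278 against 232, 172 and 224 (0.16 ± 0.36, adjusted p = 0.71). Its groups overlapped fully, its direction turned in 7 of 35 alternatives, and over the 22 libraries it followed the other members least of all (Pearson r = 0.193 with the mean of the other 46 on the log2 CPM scale, as a description of libraries that share cell types and depth), against a median of 0.919 and a highest value of 0.981 for Ncapd2. Bub3 was the next lowest at 0.606.

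Against AbsPro, the progenitor of its lineage, the enterocyte had 41 members lower, against 7.98% of genes, and a median log2 fold change of -1.67 against -0.38 over all genes. Cdc20, the activator of the anaphase-promoting complex, differed most, at 156, 149, 101, 321 and 234 against 1093, 1001 and 822 in AbsPro (0.198-fold, -2.34 ± 0.34, adjusted p = 1.3e-06). Ccna2, Kifc1, Kif20a, Ncapd2, Ube2c, Ccnb2 and Cenpa fell, with log2 fold changes from -2.01 to -2.21. Bub1, Espl1, Kif2c, Pttg1, Spc25 and Ttk did not pass. DESeq2 called 23, and only 3 were called without the libraries of high background, which leaves Enterocyte 4 alone in its group. The median was then -1.20.

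The drop from SecPDG to tuft cells and that from AbsPro to enterocytes were set against each other in an interaction term. No member was called by edgeR, against 0.364% of all genes in either direction, and DESeq2 called 1. At an unadjusted p under 0.05, 15 members were lower. No share of all genes is given for that limit, so this count is not read as a result. The median was -0.76, toward a deeper drop in enterocytes, against -0.29 over all genes. Bub3 came closest, at -1.67 ± 0.42 (adjusted p = 0.032), and was called in 14 of 34 alternatives. The count of called members was 1 without any 1 of Stem 2, Stem 3, AbsPro 1, AbsPro 3, Enterocyte 1, Enterocyte 4 or EEC 2, 2 without Tuft 4 and 4 without EEC 1. Cdc20 (-1.58 ± 0.46, adjusted p = 0.09) and Cenpa (-1.60 ± 0.47, adjusted p = 0.099) followed.

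**Figure D3:**
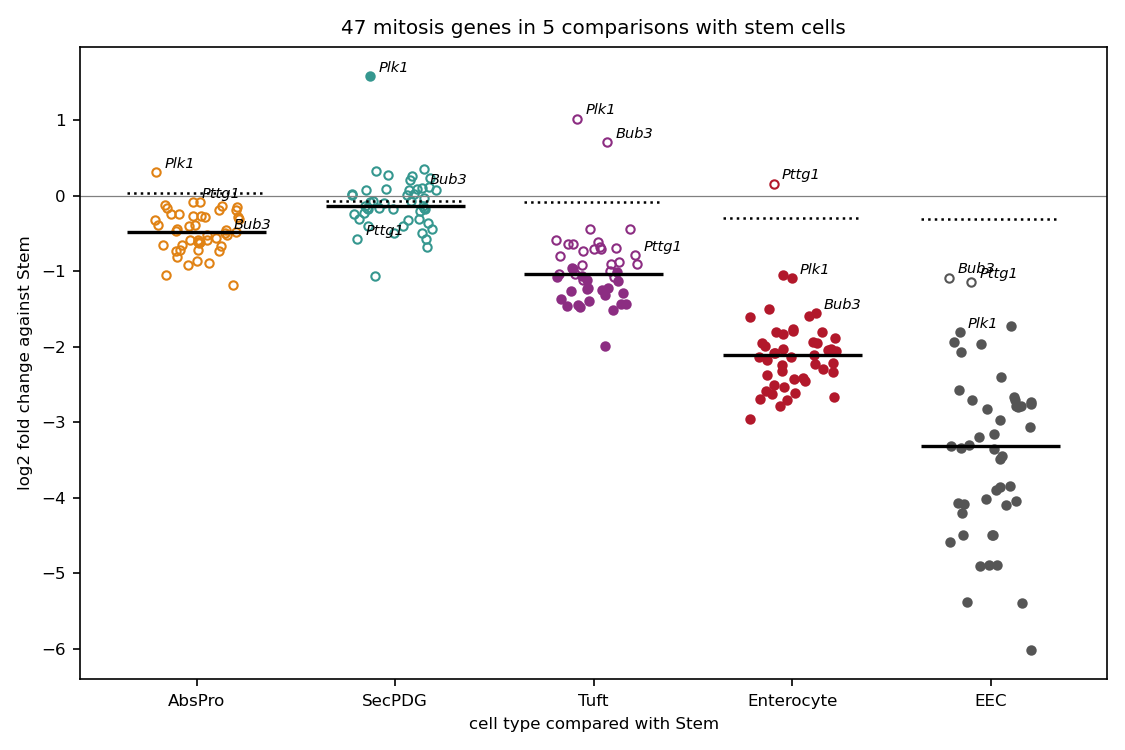
Log2 fold changes of the 47 genes against Stem in 5 cell types, with filled points for called genes, a solid bar at the median of the 47 and a dotted bar at the median of all genes with a mean of at least 50 normalized counts. The medians are -0.49, -0.14, -1.03, -2.11 and -3.32 from AbsPro to EEC, and all 5 comparisons share the same 3 Stem libraries.

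In EECs 45 members fell against Stem, against 9.14% of all genes, with a median log2 fold change of -3.32 (9.97-fold lower) against -0.30 over all genes, and in 47 of 47 members no EEC library reached the Stem range, against 34.9% of genes. Ube2c, the ubiquitin-conjugating enzyme of the anaphase-promoting complex, fell most, to 52.4 and 1.21 from 1379, 1760.4 and 1183 (log2 -6.02 ± 0.70, adjusted p = 5.4e-10). Ect2, the exchange factor that starts the cleavage furrow, was at 30.7 and 19.4 against 826, 1045 and 1162 (-5.39 ± 0.70, adjusted p = 1.4e-08), and Cdca8, or borealin, at 56 and 2.43 (-5.39 ± 0.73, adjusted p = 3.4e-08). Ccnb1, Ccnb2, Ncapg, Mad2l1 and Mki67 fell, with log2 fold changes from -4.50 to -4.91. In Cdca8, Ect2, Ccnb1, Ncapg and Mad2l1 the estimated background was over 50% of the EEC level. For Ube2c it was 47.7%, and the 2 EEC libraries held 1 and 29 reads of that gene. Its place as the gene that fell most thus rests on few reads. Bub3 (371 and 439) and Pttg1 (119 and 76.4) were not called, and Plk1 (407 and 450.2) fell by 1.81 ± 0.47 (adjusted p = 0.0013).

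The 2 EEC libraries differed. EEC 1 had 7096 CPM of background and a sum of 11194, and EEC 2 had 625 CPM and a sum of 5281. Of the reads that lay on genes, outside genes or ambiguously between genes, 89.7% were outside genes in EEC 1 and 64.5% in EEC 2. Espl1 was at 584 in EEC 1 and 2.43 in EEC 2, and Cenpa at 333 and 83.7. Without the libraries of high background, when EEC 2 alone stood for its type, 45 members were called and the median was -4.07. A fit of EECs and Stem alone called 26, and DESeq2 33. Against SecPDG, EECs had 43 members lower, against 10.1% of genes, with a median log2 fold change of -3.27 against -0.31 over all genes. Ube2c again differed most, on the same few EEC reads (-6.03 ± 0.69, adjusted p = 3.7e-10), and Bub3, Cenpa, Espl1 and Pttg1 did not pass.

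**Figure D4:**
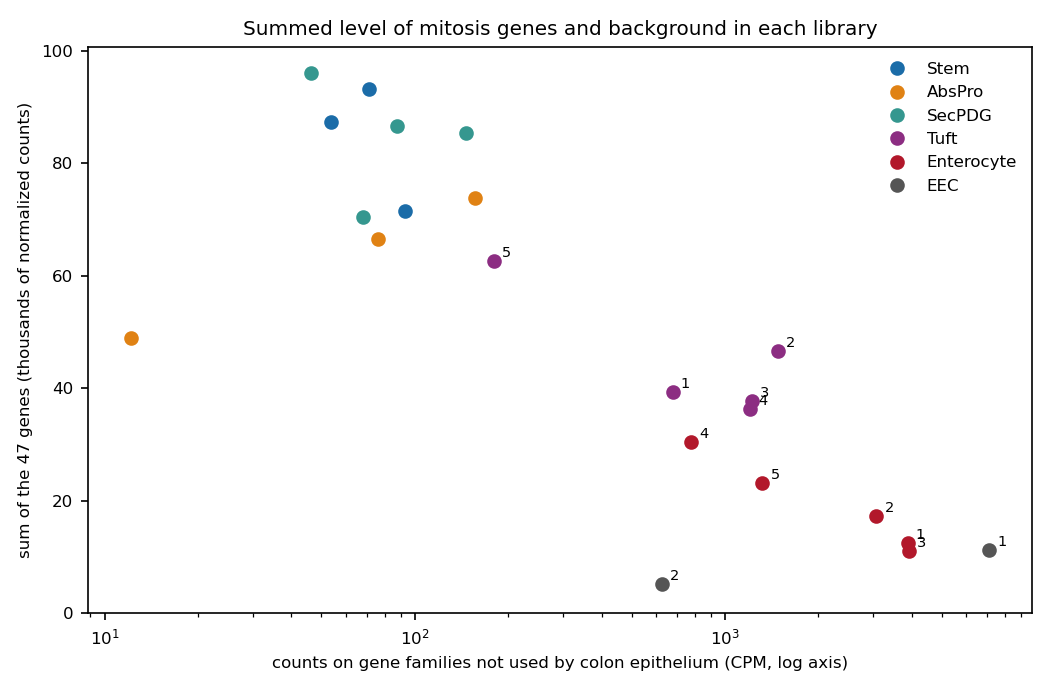
Summed normalized counts of the 47 genes (in units of 1000, axis from 0) against counts on gene families with little known use in this tissue (CPM, log axis), with 1 point per library and replicate numbers for tuft cells, enterocytes and EECs. Among enterocytes the sum is highest in Enterocyte 4 (30390) and lowest in Enterocyte 3 (11093), which have the lowest and the highest background, and EEC 2 has both a low background (625) and the lowest sum (5281).

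Among enterocyte libraries the sum of the 47 genes was lower where background was higher, and the EEC libraries went the other way. Tuft libraries were mixed. Tuft 5 had the lowest background and the highest sum, yet Tuft 2, with 1476 CPM, had 46566 against 39368 in Tuft 1 with 677 CPM. Enterocyte 4, with 777 CPM, had the highest sum of its group (30389.7), Enterocyte 5 with 1318 CPM had 23133, and the libraries with 3075 to 3912 CPM had 11093 to 17315. All 5 lay below every Stem, AbsPro, SecPDG and tuft library. Without the libraries over 1000 CPM, when Enterocyte 4 alone stood for its type and was assumed to vary like the other groups, 28 members were called lower against Stem, with a median log2 fold change of -1.69. Endothelial markers summed to 334 to 783 in enterocytes against 9.6 to 18.9 in Stem, and all 4 were called higher there, stromal markers to 697 to 1608 against 120 to 402, with 3 called higher, and immune markers to 446 to 1247, also with 3 called higher. None of these markers was at 0 in enterocytes. The goblet markers summed to 237290 to 710405 there against 21439.6 to 35065 in Stem, with 5 of 8 called higher, and 6 of 8 enteroendocrine and 5 of 7 tuft markers were also called higher. In EECs 6 of 7 tuft markers (4124 and 9190.3 against 49.3 to 82.2 in Stem), 4 of 8 enterocyte markers and 1 of 8 goblet markers were called higher against Stem, and against SecPDG 7 of 8 enterocyte markers were. In EECs the endothelial markers summed to 826 and 1340, the stromal to 416 and 2638 and the immune to 444 and 2486, with Cd79a at 0. The part of these cells in the results was not tested. With the background taken off, 44 members were called lower in enterocytes and 44 in EECs. The estimated background exceeded the EEC level of some members, as given above, so the EEC count rests on a rough estimate.

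The choice of scaling moved all genes together. The median of all genes in enterocytes was -0.30 with TMM and 0.35 with DESeq2 size factors, and in EECs -0.30 and 0.48. Relative to that median the 47 genes stood at -1.81 and -1.95 in enterocytes, -3.01 and -3.16 in EECs, -0.94 and -1.05 in tuft cells, and -0.53 and -0.52 in AbsPro, in the same order, TMM first.

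Of 124 other genes of mitosis, in 7 lists, 78 fell against Stem in enterocytes (median log2 fold change -1.31), 70 in EECs (-1.66) and 21 in tuft cells (-0.73), with medians of -0.39 in AbsPro and -0.17 in SecPDG. Of all genes, 11.5% were called lower in enterocytes, 9.14% in EECs and 4.23% in tuft cells. The medians over all genes were -0.30, -0.30 and -0.09 in these, 0.04 in AbsPro and -0.06 in SecPDG. Of 18 further spindle and cytokinesis genes 17 fell in enterocytes, among them Kif22, a chromosome motor (859 to 159 in means, -2.43 ± 0.33, adjusted p = 6.1e-08), and Aspm, a spindle pole protein (-2.26 ± 0.31, adjusted p = 9.6e-08). Of 5 genes of condensin II and topoisomerase 4 fell, with Top2a, which untangles DNA, going from 7324 to 828 (-3.14 ± 0.35, adjusted p = 3.5e-10). Of 16 further kinases and regulators of mitotic entry 13 fell, with Pbk at -2.77 ± 0.36 and Wee1, an inhibitory kinase of Cdk1, at -2.42 ± 0.35. Of 20 genes that control G2/M transcription 11 fell, led by Foxm1, from 1331 to 205 (-2.70 ± 0.33, adjusted p = 5.2e-09), and E2f8 (-2.19 ± 0.30).

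Of 29 further centromere and kinetochore genes 16 fell in enterocytes, where 11.5% of all genes did, led by Cenph (-2.36 ± 0.47) and Cenpk (-2.33 ± 0.57). Of 16 genes of cohesin and its regulators 9 fell, led by Esco2 (-2.07 ± 0.43) and Cdca5 (-1.92 ± 0.41), and of 20 genes of the anaphase-promoting complex and its inhibitors 8 fell, led by Fbxo5, its inhibitor Emi1 (-1.78 ± 0.45). In those 2 lists the medians in enterocytes were -1.09 and -0.86, against -0.30 over all genes. DNA replication genes (38) fell with the members in enterocytes (35 of 38, median -2.28) and EECs (34, -2.77), against 11.5% and 9.14% of all genes. In AbsPro their median was -0.94 where that of the members was -0.49, and in SecPDG -0.54 against -0.14, and the difference between the lists was not tested.

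**Figure D5:**
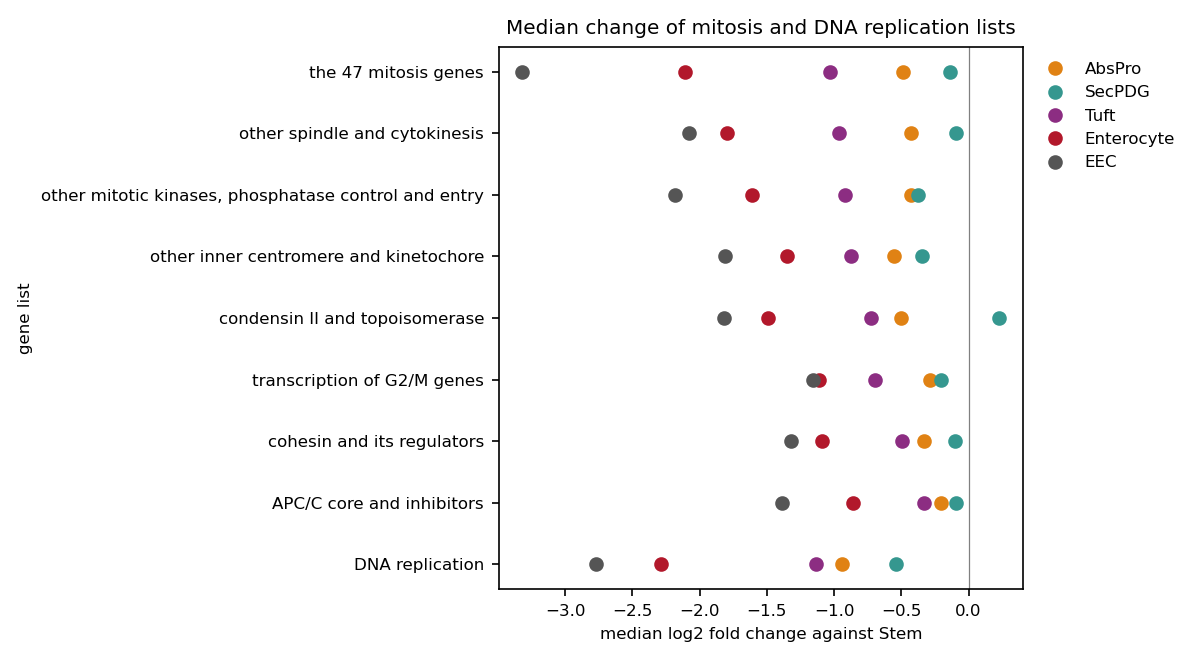
Median log2 fold change against Stem of the 47 genes, of 7 other lists of mitosis genes and of DNA replication genes, with 1 colour per cell type. In enterocytes the medians run from -0.86 for the anaphase-promoting complex to -2.11 for the 47 genes and -2.28 for DNA replication.

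The genes outside the 47 whose log2 CPM followed the mean of the members most closely over the 22 libraries were Hist1h3c and Nhp2 (both Pearson r = 0.973), Top2a (0.970), Snrnp40 and Hist1h1b (0.967), Clca3b (0.966), Slc12a2 and Cdca3 (0.964), and Gart and Rsl1d1 (0.961), out of 13141 compared. Top2a, Cdca3 and the histone genes Hist1h3c and Hist1h1b belong to dividing cells by name, whereas Clca3b and Slc12a2 do not. Nhp2, Snrnp40, Gart and Rsl1d1 were not sorted in this way. These values describe libraries that share cell types and background, and carry no test.

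Some of the transcript sequence is shared with other genes. Of the windows of 100 bases in a transcript, 28.6% of those of Ccnb1 are also found in pseudogenes such as Ccnb1-ps, 24.4% of those of Kif20a in the neighbour Cdc23, 23.7% of Kifc1 in Kifc5b, 19.7% of Prc1 in Rccd1, 16.7% of Ncapg in Lcorl, 15% of Kif4 in Pdzd11 and 14.4% of Ccna2 in Exosc9. Reads from such windows may have been left uncounted or given to the other gene, which was not tested, and the values of these 7 genes are uncertain to that extent. In the other members at most 4.63% was shared.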

How the data were processed

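The authors aligned paired reads to mm10 with STAR 2.5.2a and counted them on genes with HTSeq 0.6.1p1 without regard to strand, and deposited raw counts per gene, with no normalization. Reads from overlapping or antisense genes cannot be told apart. Each table ends with 5 lines for reads assigned to no gene, which were kept out of library sizes. Reads outside genes were 40.9% to 89.7% of the reads that lay on genes, outside genes or ambiguously between genes. The authors' tables of splicing and polyadenylation, which hold their own comparisons, were not used here.

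Tests used edgeR 4.0.16 under R 4.3.3 (filterByExpr, TMM, quasi-likelihood F test, 1 fit of the 22 libraries). The fit first ran with the trended dispersions of estimateDisp and was then changed to the current quasi-likelihood fit (legacy = FALSE), the setting of earlier work on these counts, after both sets of calls had been seen, and the first is kept as an alternative. The change raised the members called lower in tuft cells from 7 to 22 against Stem and from 0 to 6 against SecPDG. The standard error is the fold change over the square root of F. DESeq2 1.42.0, the authors' tool, was an alternative, beside those of the closing section. Tests were checked on simulated counts, where the EEC comparison first missed the limit set on the median error. It met the limit once the error was taken relative to unchanged genes, a measure adopted after that miss. The simulation changed few genes, in a single cell type at a time, with the same dispersions in all cell types. It did not model the unlike background of the libraries, so it cannot vouch for the calls in enterocytes and EECs. Exon lengths came from GENCODE on GRCm38, and promoters from RefSeq.

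The 47 members and all lists were chosen with earlier results of these data known. Tests are given for Mki67, for up to 8 called members per direction with the largest change, for the 3 lowest p where fewer than 3 were called, for up to 4 called genes per list, and for the 10 genes most like the members. Plk1, Bub3 and Pttg1 were followed further after their values were seen. Libraries of a group never agreed within counting noise (chi-square per degree of freedom at least 11.2). P-values of the main fit rest on the spread between libraries within cell types, estimated jointly over all cell types. They do not measure the spread of the compared cell types alone, and calls can change when libraries of other types are left out. That shared spread mixes libraries of individual mice (Stem, AbsPro) with libraries of pooled mice.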

Additional observations from a re-analysis of the deposited data

Results flagged for a closer look

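In groups of 4 or 5 libraries, a library was singled out where its gap to the nearest other took up more than 0.829 (4 libraries) or 0.71 (5 libraries) of the group's range. Of 141 groups of values, 8 had such a library, and chance alone gives about 1 in 20. SecPDG 1 was the lowest of its group in Mki67 (22162.8 normalized counts against 26584.8 for the next), Mad2l1 (165.45 against 499.5) and Kif18b (275.12 against 516). Tuft 5 was the highest in Bub1b (1105.01 against 732) and Anln (767.9 against 562). The other 3 were Ccnb2 in SecPDG 3 (1251.78 against 1039), Aurkb in Enterocyte 5 (184.155 against 112) and Espl1 in Tuft 1 (1030.12 against 477).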

How the results depend on the processing

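Same-numbered libraries of different cell types deviated together with a median correlation of 0.002 (-0.39 to 0.50 over 44 pairs). For pairs of other numbers it was 0.007 (-0.55 to 0.62 over 154 pairs). Replicate numbers thus showed no pairing, but a median over pairs cannot settle whether some libraries shared mice. With the replicate block, 32 members were called lower in tuft cells against Stem, 24 in tuft cells against SecPDG, 1 (Cenpa) in SecPDG against Stem, 1 in the interaction and 0 higher in SecPDG against AbsPro, and Pttg1 in enterocytes turned to -0.1388. Of the other alternatives, the fit of 2 cell types alone gave 3 lower in AbsPro, 1 lower in SecPDG, 1 higher in tuft cells and 26 lower in EECs, all against Stem, 4 higher in SecPDG against AbsPro and 24 lower in tuft cells against SecPDG. DESeq2's test gave 12 lower and 2 higher in tuft cells against Stem, 2 higher in SecPDG and 23 lower in enterocytes against AbsPro, 1 higher in tuft cells against SecPDG and 1 in the interaction. DESeq2 size factors gave 1 lower in SecPDG and 2 higher in tuft cells against Stem, 3 higher in SecPDG against AbsPro and 1 higher in tuft cells against SecPDG. Library totals gave 2 lower in SecPDG and 2 higher in tuft cells against Stem, 2 lower and 1 higher in tuft cells against SecPDG, 1 in the interaction, and -0.0223 for Mki67 in SecPDG. An adjusted p under 0.05 gave 1 lower in SecPDG and 1 higher in tuft cells against Stem, 28 lower in tuft cells against SecPDG and 1 in the interaction. No filter gave 20 lower in tuft cells against SecPDG, and thinned counts gave 11 there, 1 higher in tuft cells against Stem and 1 in the interaction.

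Of those chosen after seeing the data, the trended dispersions, the setting first used, gave 7 lower in tuft cells against Stem, 0 against SecPDG and 0 higher in SecPDG against AbsPro. Background taken off gave 13 lower and 2 higher in tuft cells against Stem, 3 higher in SecPDG against AbsPro and 2 lower in tuft cells against SecPDG. Leaving out the libraries of high background, with lone Enterocyte 4 and EEC 2 assumed to vary like the other groups, gave 2 lower in AbsPro, 1 lower in SecPDG, 1 higher in tuft cells and 28 lower in enterocytes against Stem, 6 higher in SecPDG and 3 lower in enterocytes against AbsPro, and 3 lower in tuft cells against SecPDG. With each library left out in turn, members called lower against Stem numbered 0 to 1 for SecPDG, 13 to 32 for tuft cells (0 to 1 higher), 44 to 46 for enterocytes and 37 to 46 for EECs, those in tuft cells against SecPDG 1 to 29, in enterocytes against AbsPro 37 to 44, in the interaction 0 to 4, and in SecPDG against AbsPro 0 to 3 higher and 0 to 1 lower. Pttg1 in enterocytes then ran from -0.1303 to 0.2436. Where no cause is given above, the cause was not tested.

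Members called against Stem were lower and never higher for enterocytes and EECs in all alternatives. In EECs low reads limit the values, since 12 members had 10 or fewer reads in at least 1 of the 2 EEC libraries.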
